A study of Drosophila melanogaster with 4 samples.

Results

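The NK homeobox genes tin, bap, lbe, lbl, C15 and slou lie close together on arm 3R of Drosophila melanogaster, and the binding of dSFMBT along them was examined in larvae at the third instar. Every enriched region that overlapped the stretch of 3R from 17180000 to 17360000 (FlyBase release 5) was taken. This gave 21 of the 9756 regions of the list made from both ChIP replicates combined, 16 of the 5514 regions of ChIP replicate 1 and 17 of the 6004 regions of ChIP replicate 2. The study had 4 samples of the wild-type strain Oregon-R, namely 2 ChIP libraries made with the antibody Q2642 against dSFMBT and 2 inputs. The chromatin came from larval tissue and no cell type was separated, so a region says nothing of the cells in which the protein was bound. No region list of the inputs was used here, and read depth was unknown from the ChIP lists.

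dSFMBT is a Polycomb group protein with MBT domains. Together with Pho, a sequence-specific DNA-binding protein, it forms PhoRC, a complex that sits at Polycomb response elements and helps to keep developmental genes silent where they are not needed. The NK genes encode homeodomain transcription factors that act mainly in mesoderm. tin (tinman) is required for the heart and the dorsal mesoderm, bap (bagpipe) for the gut musculature, and lbe and lbl (ladybird early and late) for the identity of a subset of muscle and heart cells. C15 (clawless) patterns the tip of the leg, and slou (slouch) sets the identity of certain body wall muscles.

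The label of the stretch was checked against the gene positions. These came from a table of RefSeq genes on release 6, shifted by the constant of 4174278 bp that was given with the stretch. 5 of the 6 genes lay inside the stretch. slou lay outside it and began 14.4 kb beyond its upper end, so its regions are described apart and are not among the 21. The table gave no strand, so the ends of a gene are called lower or higher by coordinate and no start of transcription is named. A release 5 span was listed among the synonyms of 4 genes of 3R. The shifted gene overlapped that span in 3 of the 4, and the exception, mod(mdg4), is a gene assembled from many separately listed segments.

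Of the 21 combined-list regions of the stretch, 15 overlapped a region in each replicate list. This was 71.4% (95% exact Clopper-Pearson interval 47.8 to 88.7%, counting error only), against a background of 41.4% over the whole combined list. These 15 are called shared. Of the others, 1 was found in replicate 1 alone, 2 in replicate 2 alone and 3 in neither. Replicate 1 had 15 of its 16 regions found again in replicate 2, where the background is 79.4%. Replicate 2 had 15 of its 17 regions found again in replicate 1, where the background is 71.1%. No test was made on these counts, and nothing in the labels tells if the replicates were separate larval samples, so their spread may be technical.

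**Figure D1:**
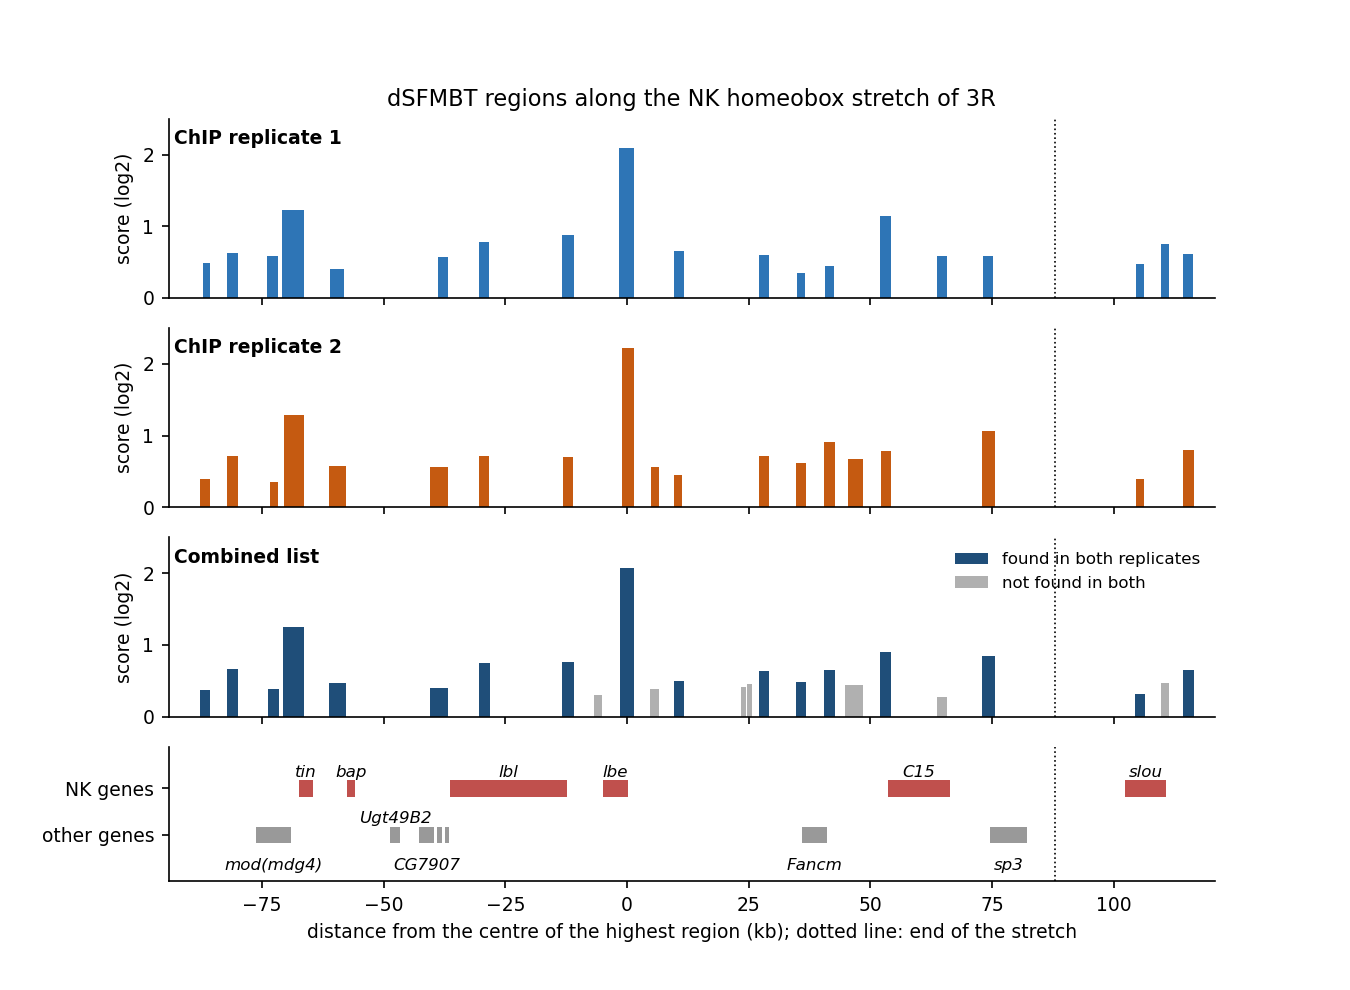
Height of each dSFMBT region (authors' score, read as log2) in replicate 1, replicate 2 and the combined list, by distance in kb from the centre of the highest region, with the coding genes in the lowest panel (the unlabelled grey boxes right of CG7907 are CheB93a and CheB93b). The region at lbe, at 2.08 in the combined list, and the region between mod(mdg4) and tin, at 1.24, stand highest in each list, and slou lies beyond the dotted line that ends the stretch.

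The authors gave each region a score and did not state its scale. It was read as log2 from the values, and the ratios below, which are 2 raised to the score, rest on that reading. The denominator of such a ratio is not given, so scores describe and rank regions within their list. Means, SDs and differences between the lists take their scores as comparable, which was not tested. The highest score of the stretch lay at lbe. The region of 3R from 17270692 to 17273569 scored 2.09 in replicate 1 and 2.22 in replicate 2 (mean 2.15 ± 0.091, SD, n = 2) and 2.08 in the combined list, a ratio of 4.22. It covered the higher end of lbe with 1568 bp of the gene, 31.6% of its length, and reached 1310 bp beyond it. Among the 4036 shared regions of the genome it ranked 28 by combined score, 27 by replicate 1 and 35 by replicate 2. The next highest combined score of the stretch was 1.24.

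The other regions near lbe scored lower. A region from 17265301 to 17267019 ended 279 bp before the lower end of lbe and scored 0.30 in the combined list, but it was found in neither replicate. A region from 17276810 to 17278645, 4.55 kb beyond the higher end of lbe, was found in replicate 2 alone, at 0.56. A shared region from 17281756 to 17283828 lay 9.50 kb beyond lbe and scored 0.66 in replicate 1 and 0.45 in replicate 2.

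lbl, the paralogue of lbe, is the longest of the NK genes here at 24.2 kb and carried 2 shared regions of moderate score. The region from 17258817 to 17261243 covered the higher end of lbl, the end that faces lbe, and scored 0.88 in replicate 1 and 0.70 in replicate 2 (mean 0.79 ± 0.13, SD, n = 2). The region from 17241734 to 17243931 lay wholly within the gene and scored 0.78 in replicate 1 and 0.71 in replicate 2 (mean 0.74 ± 0.051, SD, n = 2). Their centres in the replicates lay 4.0 and 6.0 bp apart. Both regions were above the median of all shared regions in combined score, at 0.76 and 0.74 against 0.56. A further shared region, from 17231687 to 17235308, ended 392 bp before the lower end of lbl. It scored 0.57 in replicate 1 and 0.56 in replicate 2 (mean 0.57 ± 0.0074, SD, n = 2), the smallest spread of the 15, and its combined score of 0.40 was below both. It held the whole of CheB93a, 726 bp of CG7907 and 464 bp of CheB93b, so it cannot be given to lbl rather than to these small genes.

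The second highest region of the stretch bordered tin. It ran from 17201419 to 17205831, was the widest of the 21 regions at 4413 bp, and scored 1.23 in replicate 1 and 1.29 in replicate 2 (mean 1.26 ± 0.043, SD, n = 2). The combined score was 1.24, a ratio of 2.37, and ranked 220 of 4036. The region covered the lower end of tin with 1133 bp of the gene (37.8% of it), the whole gap of 1575 bp to the neighbouring gene, and 1705 bp of the higher end of that neighbour, mod(mdg4). mod(mdg4) encodes a family of chromatin proteins that includes an insulator component, and from these lists the region cannot be assigned to tin rather than to mod(mdg4).

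bap was the sole NK gene with no region on its body in any of the 3 lists. The nearest shared region, from 17211016 to 17214461, ended 140 bp before its lower end. This region scored 0.40 in replicate 1 and 0.57 in replicate 2 (mean 0.49 ± 0.12, SD, n = 2), was 3446 bp wide and lay wholly between tin and bap. It stood below the median of the shared regions in combined score, at 0.47 against 0.56, and ranked 2851 of 4036.

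C15 had a shared region at its lower end, from 17324025 to 17326423, with a wider gap between libraries. It scored 1.14 in replicate 1 and 0.78 in replicate 2 (mean 0.96 ± 0.25, SD, n = 2). It ranked 270 of 4036 by replicate 1 and 1364 by replicate 2, so its place among the regions of the genome depends on the library. Its combined score was 0.90. It held 716 bp of C15, 5.58% of the gene, and also overlapped an annotated long noncoding RNA. A second region, from 17335900 to 17337812, lay within C15, 724 bp from its higher end. It was found in replicate 1 alone, at 0.59, and scored 0.27 in the combined list, the lowest of the 21.

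slou, outside the stretch, had the weakest signal of the NK genes that carried a shared region. The region from 17376560 to 17378485, within the gene, scored 0.47 in replicate 1 and 0.39 in replicate 2 (mean 0.43 ± 0.056, SD, n = 2). Its combined score of 0.31 ranked 3917 of 4036. A region over the higher end of slou, from 17381891 to 17383416, was found in replicate 1 alone, at 0.75. It scored 0.47 in the combined list, above the shared region of slou, and is not counted as shared. A shared region 3.43 kb beyond that end, from 17386334 to 17388522, scored 0.61 in replicate 1 and 0.80 in replicate 2. Between the last region of the stretch and the first at slou lay 28.8 kb with no region in the combined list.

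The NK genes were ordered by the highest combined score of a shared region on the gene. lbe stood at 2.08, tin at 1.24, C15 at 0.90, lbl at 0.76 and slou at 0.31, with bap without a region on the gene. The region at tin cannot be assigned to tin rather than to mod(mdg4), so 1.24 is the score of a region that both genes share. The replicate values kept lbe above tin, tin above C15 and slou lowest. C15 was above lbl in each replicate, but the pair cannot be ordered beyond their spread, since their means, 0.96 at C15 and 0.79 at lbl, differed by less than the SD of 0.25 at C15.

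The remaining shared regions lay on genes outside the NK family or on no coding gene. Within mod(mdg4), a region from 17198289 to 17200599 scored 0.58 in replicate 1 and 0.36 in replicate 2. Further from tin, regions from 17184419 to 17186555 (0.48 in replicate 1 and 0.39 in replicate 2) and from 17189918 to 17192318 (0.62 in replicate 1 and 0.71 in replicate 2) overlapped no coding gene and lay on listed segments of mod(mdg4). The nearest coding genes of this pair were aus and mod(mdg4). Fancm, a gene of DNA repair between lbe and C15, had a region at each end. Its lower end scored 0.35 in replicate 1 and 0.62 in replicate 2, and its higher end scored 0.45 in replicate 1 and 0.91 in replicate 2. The lower end of sp3, the gene after C15, had a region from 17345094 to 17347751 that scored 0.58 in replicate 1 and 1.07 in replicate 2, an SD of 0.35 and the widest gap between libraries in the stretch. Of the 12 coding genes of the stretch, Ugt49B2 had no region on its body or within 1 kb of it.

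**Figure D2:**
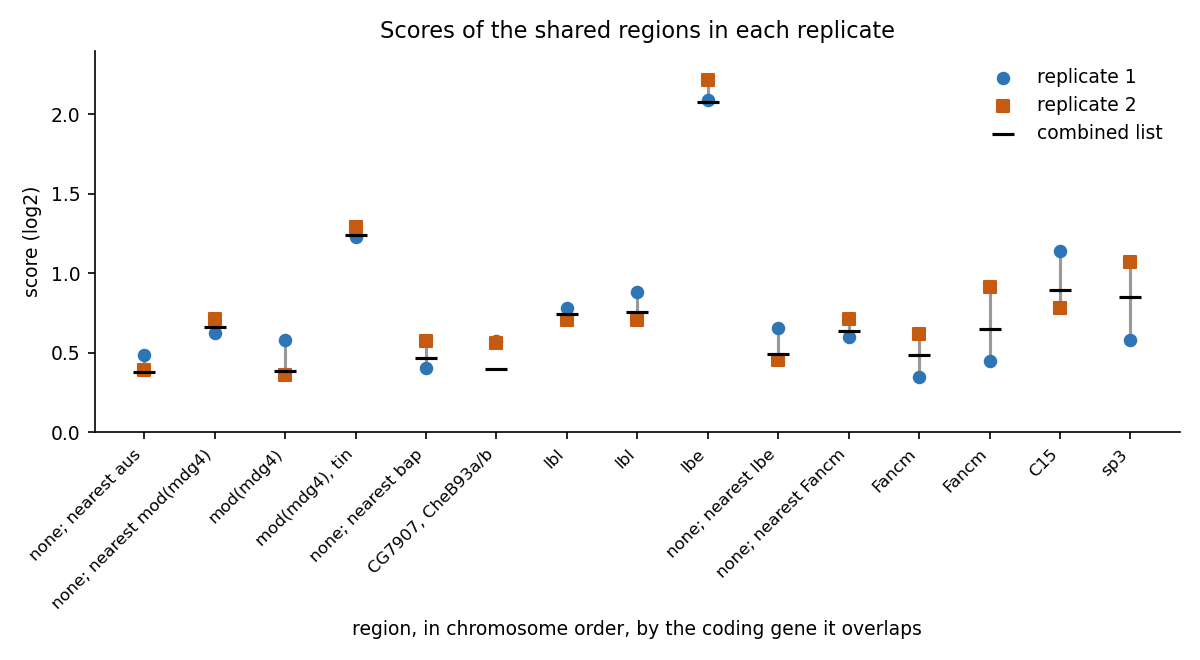
Score (log2) of the 15 shared regions in replicate 1 (circles), replicate 2 (squares) and the combined list (bars), in chromosome order and named by the coding gene they overlap. The region at lbe is highest in each list, and the regions at the higher end of Fancm, at C15 and at sp3 have the widest gaps between the replicates.

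The replicates differed at these 15 regions without a common direction. Replicate 2 scored higher in 8 and lower in 7. The median SD between replicates was 0.12, against 0.077 over all 4036 shared regions. The median score was 0.60 in replicate 1 and 0.71 in replicate 2 within the stretch, against 0.61 in replicate 1 and 0.66 in replicate 2 over all shared regions. In position the libraries were close: the centres lay a median of 96.5 bp apart, and 826.5 bp apart at most, at the region beside the lower end of lbl, where replicate 2 began further from the gene than replicate 1.

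The stretch held many regions of ordinary height. Its density was 83.3 shared regions per Mb, against 32.8 per Mb on 3R as a whole. Their median combined score was 0.65, against 0.55 on 3R. A ratio above 2 was found in 2 of the 15, the region at lbe and the region between mod(mdg4) and tin. This is 13.3% (95% exact interval 1.66 to 40.5%), near the background of 11.7% over all shared regions. The regions were narrow, at a median of 2399 bp and a maximum of 4413 bp in width, against a median of 2702 bp and a maximum of 18502 bp on 3R. Gaps between neighbouring shared regions had a median of 7.31 kb, against 11.3 kb on 3R, and ran up to 18.7 kb.

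When 3R was divided into 154 adjacent windows of 180 kb, the stretch ranked 3 by number of shared regions, level with another window of 15, where the median window held 5. By covered length it ranked 14, at 21.8% against a median of 8.78%. By its highest score it ranked 6. Among the 665 windows of the 6 chromosome arms it ranked 8 by number, 72 by covered length and 19 by highest score. The rank by number was shared by 5 windows, the stretch included. These ranks are a description, since the stretch was chosen with results known.

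**Figure D3:**
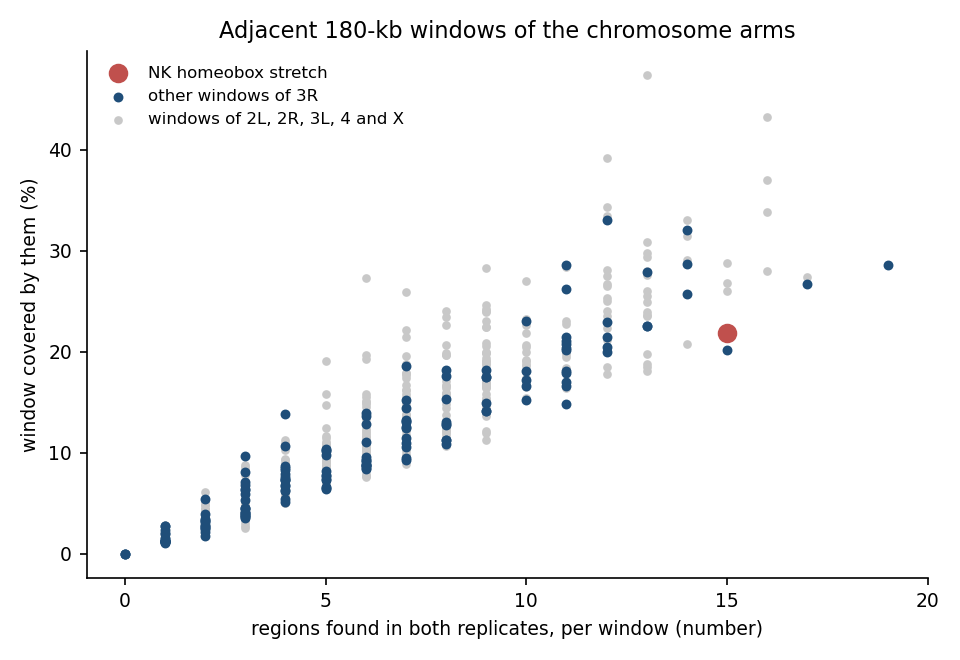
Number of shared regions (horizontal) and percent of the window covered by them (vertical) in adjacent 180-kb windows of the chromosome arms. The NK homeobox stretch, at 15 regions and 21.8%, lies among the windows with the most regions and on the lower side of the coverage seen at that number.

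The Hox clusters of the same arm held a larger share of high-scoring regions than the NK stretch did. The shared regions of the NK stretch had a ratio above 2 in 13.3%, against 48.4% of the 31 in the Bithorax cluster from Ubx to Abd-B (30.2 to 66.9%) and 28.0% of the 25 in the Antennapedia cluster from lab to Antp (12.1 to 49.4%; exact intervals, counting error only). The intervals of the NK stretch and of each Hox cluster overlap, and the differences were not tested. Density was 83.3 per Mb in the NK stretch, 98.2 per Mb in the Bithorax cluster and 74.0 per Mb in the Antennapedia cluster. Covered length was 21.8% in the NK stretch, 24.2% in the Bithorax cluster and 20.1% in the Antennapedia cluster. The bounds were unlike: the Hox clusters were cut at their outer gene ends, whereas the NK stretch began before tin and left out slou. Widened to the higher end of slou, it had 78.9 shared regions per Mb and 20.3% covered. Between the outer ends of the 6 NK genes lay 13 shared regions, and the density there was not computed. The NK stretch and the Antennapedia cluster are therefore not ordered by density. Median width was 2399 bp in the NK stretch, 2363 bp in the Bithorax cluster and 2430 bp in the Antennapedia cluster. Narrow regions were thus not particular to the NK stretch.

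Shared regions that overlapped no gene listed as coding made up a larger share of the NK stretch than of the arm. The separately listed segments of mod(mdg4) were not counted as coding. The contrast would be smaller if the pair of regions on these segments were counted as lying on mod(mdg4). Of the 15, 10 overlapped a coding gene, which was 66.7% (95% exact interval 38.4 to 88.2%), against a background of 90.5% of the 916 shared regions of 3R, and the difference was not tested. The 5 that overlapped none were the pair on the segments of mod(mdg4), the region before bap, and a pair between lbe and Fancm, of which the second, from 17299152 to 17301286, scored 0.60 in replicate 1 and 0.71 in replicate 2. The interval of 53.4 kb between lbe and C15 wholly contained 8 combined-list regions, 4 of them shared. 5 of the 15 shared regions overlapped an NK gene, 7 lay on or within 1 kb of an NK gene and 10 lay on or within 10 kb of an NK gene. The share of the stretch that lies on an NK gene or within these distances was not computed. These counts therefore do not tell if regions gather at the NK genes.

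As a group, 5 of the 6 NK genes, slou included, were overlapped by a shared region, against a background of 37.9% of the 3387 coding genes of 3R. All 6 lay on or within 1 kb of a shared region, where the background is 43.1%. tin and lbe, 2 of the 6, were overlapped by a region with a ratio above 2, where the background is 5.64%. The region at tin is also counted for mod(mdg4), and from these lists it cannot be assigned to either gene. Of the 6, lbe alone carried such a region that overlapped no other coding gene. The genes were chosen as a group with results known, so the counts are a description. Length moved with overlap on 3R: 48.6% of coding genes above the median length of 2.10 kb were overlapped, against 27.2% of those at or below it, and 5 of the 6 NK genes were above it, bap being the exception at 1.57 kb. The part of length in the count was not tested.

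A list of 23 other homeobox genes of 3R was set beside them. Of these, 17 were overlapped by a shared region, 73.9%, and their median highest score was 1.20, against 0.90 for the 5 overlapped NK genes and 0.59 for all 1283 overlapped coding genes of 3R. A region with a ratio above 2 lay on 9 of the 23, 39.1%, against 2 of the 6 NK genes, 33.3%. Such regions were thus not particular to the NK genes. Neighbouring genes can share a region, as pb and zen2 did at 0.87. The 5 of the list with the highest score were Abd-B at 2.76, abd-A at 2.39, Dfd at 2.39, Dr at 1.67 and Ubx at 1.67. Abd-B, abd-A, Dfd and Ubx are Hox genes, and Dr encodes a homeodomain protein of the Msx type. lbe ranked 7 among all coding genes of 3R by this score, behind Abd-B, abd-A and Dfd from the list and ahead of Dr and Ubx. NK7.1, an NK gene that lies apart from the cluster, had no shared region on its body, and Hmx, of a related family, had a region at 0.75.

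**Figure D4:**
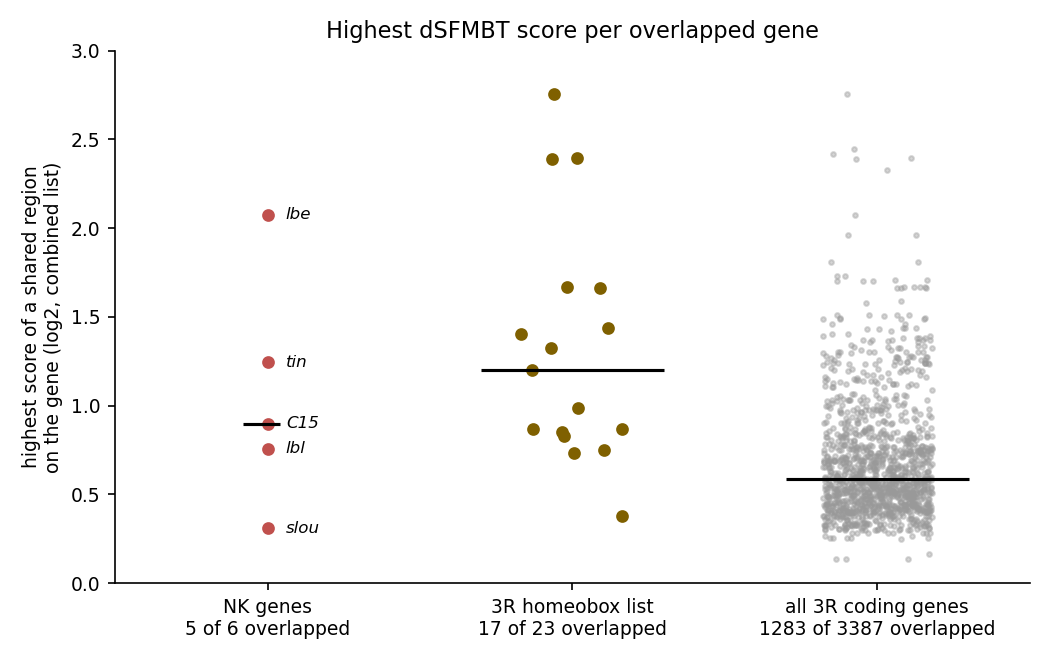
Highest combined-list score (log2) of a shared region on each overlapped gene, for the NK genes, the 3R homeobox list and all coding genes of 3R, with the median of each group as a line. lbe, at 2.08, stands among the highest genes of the arm, whereas slou, at 0.31, lies below the median of all overlapped genes, 0.59.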

How the data were processed

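The submitters' processing notes name Bowtie 0.12.7 as a tool, and the file headers give FlyBase release 5 as the build. The sources used here do not say how regions were called or how inputs entered. The deposited score of each region was read as log2, because differences between the 12 most frequent scores matched log2 of simple ratios (denominator up to 40, tolerance 1e-07) in 16 of 66 pairs in the combined list, 44 in replicate 1 and 24 in replicate 2, and natural log or base 10 in 0.

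Overlaps of at least 1 bp were computed with Python 3.11.15, numpy 2.4.6 and pandas 2.3.3, and simulated lists gave the same counts in bedtools 2.31.1. Where several replicate regions met a combined region, the highest score was kept. Gene positions were release 6 RefSeq, shifted by 4174278 bp. At that shift 22.1% of the ends of 3R coding genes lay inside shared regions, against 14.8% or less when moved a further 5 to 50 kb either way. The table has no strand, so overlap with the gene body replaced the planned start-site count. The motif search was not run. The region lists at hand were of ChIP libraries, with no values for the inputs, so ChIP and input were not compared. Genes named were the NK genes, those on or nearest to a shared region of the stretch, and the top 5 of the homeobox list, and Ugt49B2, NK7.1, Hmx, pb and zen2 were added after their values were seen. The genes, the stretch and the lists were chosen with earlier results of these data known. Figures used matplotlib 3.10.9.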

Additional observations from a re-analysis of the deposited data

How the results depend on the processing

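The stretch held 15 shared regions also when at least 50% of a region had to lie inside regions of each replicate list, and when regions under 500 bp apart were merged. It held 20 when widened by 50 kb on each side and 13 between the outer ends of the 6 genes. With replicate regions limited to the scores from the median of their list upward it held 7, where fewer regions enter by construction. With 1 replicate left out it held 16 to 17. Covered length was 28.2% in the whole combined list and 17.3% for shared regions that reached the median score of that list, which hold more and fewer regions by construction, and 20.6 to 23.2% with 1 replicate list alone. NK genes overlapped numbered 4 to 6 over all settings: 6 within 1 kb, 4 by gene ends (chosen after seeing the data) and 4 for regions that reached that median. The share of 3R coding genes overlapped was 43.1% within 1 kb, 36.1% by gene ends, 56.9% in the whole combined list, 31.2% for regions that reached the median, and 39.4 to 46.0% with 1 replicate list alone. For the homeobox list it stayed between 69.6 and 78.3%, except by gene ends, at 65.2%. Of the 15 region scores, 14 of the combined-list values lay within 1 SD of the replicate mean. The exception was the region before lbl, at 0.40 against 0.57, and the cause was not tested. An SD of 2 values follows from their difference, so this count does not measure stability. No paired analysis was possible because the lists analysed here hold values for the ChIP libraries and none for the inputs, which leaves no pair of values to compare. Without read depth, a region missing from a list cannot be called absent.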

Other observations

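The combined-list score was no simple mean of the replicates. In the NK stretch it lay between the replicate scores in 12 of the 15 shared regions and below both in 3, whereas over all 4036 shared regions it lay below both in 53.4%. No test of that difference was made. Each of the 15 met 1 region in each replicate list, whereas the highest replicate score was kept wherever several met a combined region. The part of this rule in the difference was not tested. Regions found in 1 replicate alone were not the lowest of their own list: the regions found in replicate 2 alone scored 0.56 and 0.67 there, and the regions of C15 and slou found in replicate 1 alone scored 0.59 and 0.75, against a lowest score of 0.35 in replicate 1 and 0.36 in replicate 2 within the stretch.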
